A study of Mus musculus with 3 samples.

Results

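Ccl3, Ccl4, Ccl5, Ccl6 and Ccl9 are CC chemokine genes. They were chosen by name, and all 5 were among the 13242 genes of a single-cell RNA sequencing table of 4374 cells. The cells were macrophages sorted from the quadriceps of mice 1 week after volumetric muscle loss, an injury in which a piece of muscle is cut out. The wounds had received polycaprolactone (PCL, a synthetic polyester), urinary bladder matrix (UBM, a decellularised biological scaffold) or saline, with 1 library per treatment. The sources used here do not give the strain, sex or age of the mice, or how many went into a library.

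The PCL library had 1753 cells with 11006118 UMIs (unique molecular identifiers, each standing for 1 captured transcript), the UBM library 2280 cells with 14586276 UMIs, and the saline library 341 cells with 1888343 UMIs. The median depth per cell was 5662 UMIs with PCL, 5476.5 with UBM and 4594 with saline. Of 12 macrophage markers all 12 were detected, at a summed 24566 counts per 1000000 UMIs (CPM) with PCL, 18109 with UBM and 33219 with saline. Neutrophil markers summed to 1676 CPM with PCL, 116 with UBM and 253 with saline, and muscle-fibre markers to 30.2, 40.3 and 671 CPM in the same order. The authors' 9 clusters are kept under their own names, whose letters the labels do not explain. Their mix differed: FP1 held 59.1% of PCL cells, 4.34% of UBM cells and 21.1% of saline cells, and R2 held only UBM cells. In all, 6 cell barcodes occurred in more than 1 library. With 1 library per treatment no difference between treatments has a replicate check, and no p-value is given. Intervals are exact 95% intervals for counting error only.

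CC chemokines are small secreted proteins that draw leukocytes along a gradient by way of receptors coupled to G proteins. Ccl3 and Ccl4 encode the macrophage inflammatory proteins MIP-1α and MIP-1β, which macrophages release after inflammatory stimulation. Ccl3 protein acts in part through the receptor CCR1. Ccl5 encodes RANTES, a ligand of CCR1 and CCR3 that T cells and natural killer cells also make. Ccl6 (C10) and Ccl9 (MIP-1γ) encode CCR1 ligands of mouse myeloid cells.

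The 5 genes lie within 138906 bases of mouse chromosome 11 (GRCm38, GENCODE annotation). Their order along the chromosome is Ccl5 at chr11:83525778-83530518, Ccl9 at chr11:83572919-83578636, Ccl6 at chr11:83587882-83593087, Ccl3 at chr11:83647844-83649355 and Ccl4 at chr11:83662584-83664683. Ccl4 is on the plus strand and the others on the minus strand. Ccl9 and Ccl6 are the closest neighbours, 9245 bases apart. No 31-base word was shared between transcripts of these 5 genes, so their reads differ at that length. Words also found in transcripts of other genes made up 0% of those of Ccl3 and Ccl4, 0.539% of Ccl5, 1.02% of Ccl6 and 3.75% of Ccl9. The labels do not say whether counting used strand.

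The 250 bases before the start of Ccl3 (chr11:83649379-83649628), Ccl6 (chr11:83593088-83593337) and Ccl9 (chr11:83578637-83578886) are shown to set the closest neighbours on the chromosome, Ccl6 and Ccl9, beside Ccl3. Of the 5 genes these 3 matched the promoter table used here, and Ccl4 and Ccl5 are not shown. They are RefSeq sequences of GRCm38.p6, minus strand, 5′ to 3′. The Ccl3 bases end at 83649379, so they count from a start upstream of the GENCODE one at 83649355. Those of Ccl6 and Ccl9 adjoin the GENCODE genes. Capitals mark GGAAGT, a longer form of the ETS factor core GGAA, here read as its reverse complement ACTTCC. Other copies of GGAA are not marked.
Ccl3: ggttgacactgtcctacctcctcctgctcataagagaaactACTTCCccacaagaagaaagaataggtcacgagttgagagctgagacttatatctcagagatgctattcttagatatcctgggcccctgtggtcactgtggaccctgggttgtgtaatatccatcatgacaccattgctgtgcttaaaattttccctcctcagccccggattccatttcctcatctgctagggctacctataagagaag
Ccl6: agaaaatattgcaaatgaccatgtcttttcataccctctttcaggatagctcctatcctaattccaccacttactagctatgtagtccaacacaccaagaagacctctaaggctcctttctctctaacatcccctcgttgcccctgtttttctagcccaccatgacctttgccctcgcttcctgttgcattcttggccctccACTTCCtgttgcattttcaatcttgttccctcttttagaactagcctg
Ccl9: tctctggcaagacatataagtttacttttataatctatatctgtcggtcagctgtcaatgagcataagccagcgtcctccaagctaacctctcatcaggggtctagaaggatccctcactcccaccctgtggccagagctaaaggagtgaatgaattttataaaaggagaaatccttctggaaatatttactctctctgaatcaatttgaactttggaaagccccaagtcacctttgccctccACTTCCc
GGAAGT was present once in each of the 3 sequences, and in 19.7% of 32851 promoters of the same length searched on both strands. With the last base of each printed sequence as -1, it began at -209 in Ccl3, at -48 in Ccl6 and at -7 in Ccl9. The Ccl6 and Ccl9 copies lay in a stretch with 16 of 17 aligned bases identical and a longest shared run of 13 bases. The longest run that Ccl3 shared with either was 8 bases. Of the 5 other motifs searched, Ccl9 held TATAAA (12.4% of all promoters) and an NF-kB motif of GGGNN followed directly by TTTCC (1.41%). It also held TGANTCA (6.75%), a loose AP-1 pattern that allows any middle base. The match was TGAATCA and is not read as an AP-1 site. Neither Ccl6 nor Ccl3 held any of these. TTGCNNAA for C/EBP (9.56%) and an interferon-stimulated element of GAAANN followed directly by GAAA (2.98%) were in none of the 3.

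Ccl6 and Ccl9 were among the most abundant transcripts of these cells, Ccl3 and Ccl4 were intermediate, and Ccl5 was rare. Each captured transcript is read from its 3′ end, so levels were compared between genes without dividing by length. Ccl6 ranked 17th of all genes with PCL, 17th with UBM and 64th with saline, and Ccl9 ranked 26th, 84th and 130th. Ccl6 UMIs were found in 99.5% of PCL cells, 96.9% of UBM cells and 87.7% of saline cells, and Ccl9 UMIs in 99.4%, 91.5% and 83.6%. No cluster known to lack the 5 genes was available, so the share that free RNA gives could not be measured.

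Ccl6 stood at 4358 CPM with PCL (47970 UMIs), 5116 CPM with UBM (74625 UMIs) and 2210 CPM with saline (4174 UMIs). Ccl9 stood at 3469 CPM with PCL (38185 UMIs), 2171 CPM with UBM (31660 UMIs) and 1298 CPM with saline (2452 UMIs). Both were lowest with saline, and they differed in which scaffold was highest: Ccl6 with UBM and Ccl9 with PCL. Against saline, Ccl6 was 2.31-fold higher with UBM (2.24 to 2.39) and 1.97-fold higher with PCL (1.91 to 2.04). Ccl9 was 1.67-fold higher with UBM (1.60 to 1.74) and 2.67-fold higher with PCL (2.56 to 2.78). Between the scaffolds, Ccl9 was 1.60-fold higher with PCL than with UBM (1.57 to 1.62) and Ccl6 was 1.17-fold lower (1.16 to 1.19). Without cluster R2 the level of Ccl6 with UBM was 4141 CPM, and Ccl6 was then 0.07 higher with PCL than with UBM on the log2 scale.

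Ccl3 and Ccl4 ran the other way, with their highest levels in the saline library. Ccl3 stood at 182 CPM with PCL (1999 UMIs), 78.1 CPM with UBM (1139 UMIs) and 277 CPM with saline (523 UMIs). Ccl4 stood at 412 CPM with PCL (4534 UMIs), 306 CPM with UBM (4465 UMIs) and 685 CPM with saline (1294 UMIs). For both genes the order was saline, PCL, UBM from high to low. Ccl3 was 3.55-fold lower with UBM than with saline (3.19 to 3.94) and 1.52-fold lower with PCL than with saline (1.38 to 1.68). Ccl4 was 2.24-fold lower with UBM (2.10 to 2.38) and 1.66-fold lower with PCL (1.56 to 1.77). With PCL, Ccl3 was 2.33-fold higher than with UBM (2.16 to 2.50) and Ccl4 1.35-fold higher (1.29 to 1.40).

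These Ccl3 and Ccl4 levels rested on few cells. With PCL, 61 cells (3.48% of the library) held 50% of Ccl3 UMIs, with UBM 82 (3.60%) and with saline 13 (3.81%). In the saline library 1 F1 cell held 233 Ccl4 UMIs, 18.0% of the total, and the same cell held 64 Ccl3 UMIs, 12.2% of the total. Without the top cell of each library, Ccl4 stood at 383 CPM with PCL, 303 CPM with UBM and 564 CPM with saline, and the difference between UBM and saline was 1.86-fold. Shares of cells did not follow the order of the levels: after thinning each cell to 2500 UMIs, Ccl4 was found in 31.8% of PCL cells, 26.3% of UBM cells and 30.9% of saline cells, so no order was read from them. Thinned shares for Ccl3 were 21.5% with PCL, 12.5% with UBM and 21.4% with saline.

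Ccl5 was found in 46 of 1753 PCL cells, 60 of 2280 UBM cells and 9 of 341 saline cells, or 2.62%, 2.63% and 2.64%. Its level was 24.0 CPM with PCL (264 UMIs), 35.9 CPM with UBM (524 UMIs) and 25.4 CPM with saline (48 UMIs). The counting interval of the PCL to saline ratio of 0.944 ran from 0.692 to 1.31. Ccl5 was 1.41-fold higher with UBM than with saline (1.05 to 1.94), but the size of this difference moved with the processing. Its log2 ratio was 0.50, and ran from 0.06 without cells carrying natural killer cell transcripts to 4.35 with FP1 and RP3 weighted equally. It was 1.61 with each cell counted alike. The 4.35 rests on a saline level from 1 Ccl5 UMI in FP1 and 0 in RP3.

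**Figure D1:**
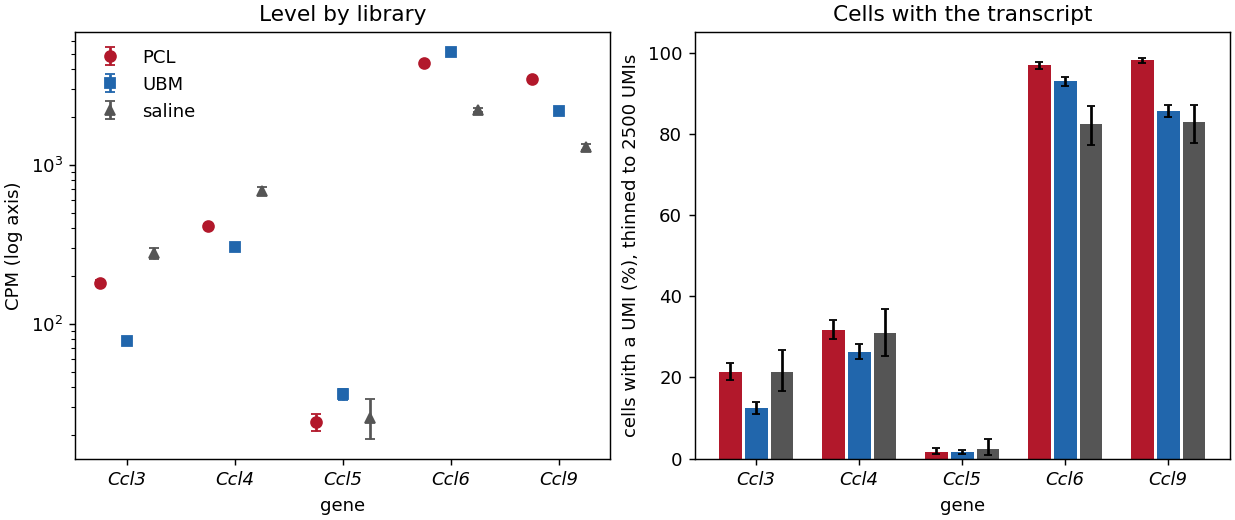
Left, level of each gene in CPM on a log axis, and right, percent of cells with at least 1 UMI after thinning to 2500 UMIs per cell, for the PCL, UBM and saline libraries (1 each). Points and bars are library values with exact 95% counting intervals. In CPM (left), Ccl6 and Ccl9 are lowest with saline, and Ccl3 and Ccl4 are highest with saline.

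By a rule of at least 2-fold, UBM against saline had 1 of the 5 genes higher (Ccl6) and 2 lower (Ccl3 and Ccl4). Of all 2753 genes that reached 50 CPM in either library, 4.29% were past 2-fold upward and 7.63% downward in that comparison. PCL against saline had 1 higher (Ccl9) and 0 lower, where 5.05% of 2829 genes were higher and 4.38% lower. PCL against UBM had 1 higher (Ccl3) and 0 lower, where 7.4% of 2772 genes were higher and 3.82% lower. The 5 genes were counted with no minimum, and Ccl5 did not reach 50 CPM in any library. With no minimum, 18.1% of all genes were past 2-fold in either direction for UBM against saline, 17.7% for PCL against saline and 18.5% for PCL against UBM. The comparisons share libraries, so they are not independent. The median log2 ratio of all genes was -0.05 for UBM against saline, 0.10 for PCL against saline and 0.17 for PCL against UBM.

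Because the cluster mix differed between libraries, levels were also compared inside each cluster that had 50 or more cells from both libraries. Ccl6 and Ccl9 were higher with either scaffold than with saline in each cluster so compared. In FP1, Ccl6 stood at 3812 CPM with PCL, 3762 CPM with UBM and 1370 CPM with saline, and Ccl9 at 3709, 2821 and 1374 CPM. Ccl6 there was 2.78-fold higher with PCL than with saline (2.58 to 3.01) and 2.75-fold higher with UBM (2.53 to 2.99). Ccl9 was 2.70-fold higher with PCL (2.50 to 2.92) and 2.05-fold higher with UBM (1.88 to 2.24). In RP3 the differences were smaller: Ccl6 was 1.55-fold higher with PCL and 1.78-fold higher with UBM, and Ccl9 1.79-fold and 1.75-fold. In F1, where PCL and saline could be compared, Ccl6 was 2.09-fold and Ccl9 2.10-fold higher with PCL.

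Ccl3 and Ccl4 were lower with UBM than with saline in both clusters compared. In FP1, Ccl3 stood at 40.3 CPM with UBM against 180 CPM with saline, 4.47-fold lower, and Ccl4 at 122 against 328 CPM, 2.68-fold lower. In RP3, Ccl3 was 1.99-fold and Ccl4 2.25-fold lower with UBM. The RP3 difference in Ccl4 was 1.45-fold without the top cell of each library, and the FP1 difference in Ccl3 stayed past 2-fold. With PCL the direction against saline depended on the cluster. In F1, Ccl3 stood at 222 CPM with PCL and 524 CPM with saline, and Ccl4 at 705 and 1680 CPM, 2.36-fold and 2.38-fold lower with PCL. In RP3, Ccl3 stood at 370 CPM with PCL and 242 CPM with saline, and Ccl4 at 760 and 599 CPM, 1.53-fold and 1.27-fold higher with PCL. Without the top cells the F1 differences were 1.66-fold and 1.60-fold, and in FP1 the PCL to saline ratio of Ccl3 moved to 1.09, against 0.677 with all cells. Ccl4 in FP1 was 1.82-fold lower with PCL than with saline, and 1.47-fold lower without the top cells.

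Between the scaffolds, Ccl3 and Ccl4 were higher with PCL than with UBM in RP3 and FP1 but not in RP2. In RP3 Ccl3 was 3.05-fold and Ccl4 2.85-fold higher with PCL, and in FP1 3.02-fold and 1.47-fold. Without top cells the FP1 difference in Ccl4 was 2.37-fold. In RP2 Ccl4 stood at 257 CPM with PCL and 379 CPM with UBM, 1.47-fold lower with PCL, and the Ccl3 ratio of 0.884 had an interval from 0.584 to 1.29. Ccl9 in RP2 stood at 3506 CPM with PCL and 1570 CPM with UBM, 2.23-fold higher with PCL. In RP3 the Ccl9 ratio was 1.02 (0.962 to 1.09).

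Within clusters the counts of at least 2-fold differences are set beside the share past that size, in either direction, of the 2604 to 3022 genes that reached 50 CPM there in either library. The 5 chemokines were first counted with no such minimum. For PCL against saline they were 5 of 5 genes in F1 (10.5% of genes at 50 CPM), 3 of 5 in FP1 (7.87%) and 0 of 5 in RP3 (14.3%). For UBM against saline they were 5 of 5 in FP1 (13.3%) and 1 of 5 in RP3 (16.7%). For PCL against UBM they were 2 of 5 in FP1 (10.7%), 2 of 5 in RP2 (8.76%) and 2 of 5 in RP3 (10.6%). Ccl5 was below 50 CPM in FP1, RP2 and RP3, and under the same minimum the counts were 2 of 4 in FP1 and 0 of 4 in RP3 for PCL against saline, 4 of 4 in FP1 and 1 of 4 in RP3 for UBM against saline, and 1 of 4 in FP1, 1 of 4 in RP2 and 2 of 4 in RP3 for PCL against UBM. Without the top cell of each library the F1 count became 3 of 5, with Ccl3 and Ccl4 no longer past 2-fold, the RP3 count for UBM against saline became 0 of 4, and the FP1 count for PCL against UBM became 2 of 4. The counts in FP1 against saline with no minimum include Ccl5, which had 1 UMI in saline, 64 with PCL and 20 with UBM there. Those of PCL against UBM in FP1 and RP2 also include Ccl5, whose direction turned without the top cells: the ratio was 0.389 in FP1 and 1.45 without them, and 2.47 in RP2 and 0.552 without them. In RP3 Ccl5 had 0 UMIs with saline and no fold is given. In F1 Ccl5 stood at 36.8 CPM with PCL and 94.0 CPM with saline, 2.55-fold lower with PCL, and 4.59-fold lower without top cells. There Ccl5 had 106 UMIs in 14 of 455 PCL cells, 75 of them in 1 cell, and 33 UMIs in 4 of 64 saline cells. After thinning it was found in 2.33% of these PCL cells (1.12 to 4.24) and 4.17% of these saline cells (0.509 to 14.3). The F1 counts include Ccl5.

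**Figure D2:**
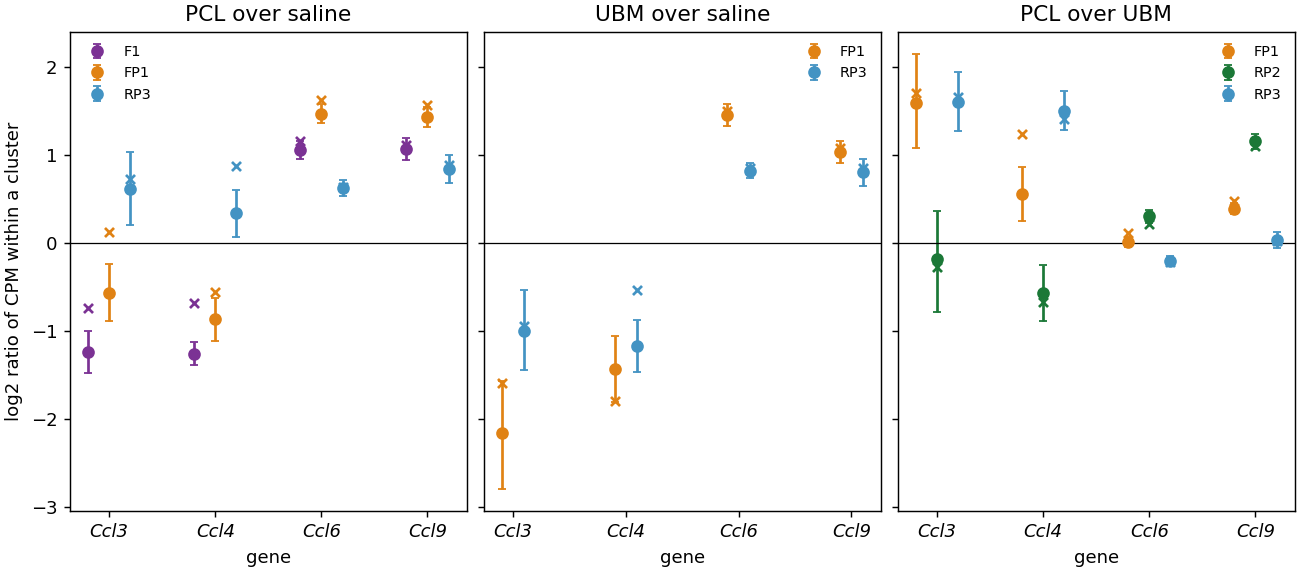
Log2 ratio of CPM inside clusters that had 50 or more cells from both libraries, for PCL over saline, UBM over saline and PCL over UBM. Circles are all cells with exact 95% counting intervals, and crosses leave out the top cell of the gene in each library. Ccl6 and Ccl9 lie above 0 in every comparison with saline, while Ccl3 and Ccl4 lie on both sides of 0 for PCL over saline.

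Across the clusters, pooled over libraries, Ccl6 was highest in R2 at 10717 CPM, followed by RP3 at 6948 CPM, and lowest in R3 at 2138 CPM. Ccl9 was also highest in R2 at 3851 CPM and lowest in R3 at 1180 CPM, with FP1 second at 3473 CPM. The pooled order reflects the mix of libraries: its Spearman correlation with the order in a single library was 0.66 for PCL, 0.90 for UBM and 0.60 for saline for Ccl9. R2 had the lowest Ccl3, 18.5 CPM in 6.69% of its 254 cells, and the lowest Ccl4, 134 CPM. Ccl3 and Ccl4 were highest in F2, at 827 and 1998 CPM in 56 cells, but 1 PCL cell held 72.5% of the Ccl3 and 55.0% of the Ccl4 UMIs of that cluster. Without that cell F2 stood at 240 CPM of Ccl3, near F1 at 246 CPM and RP3 at 219 CPM, and at 948 CPM of Ccl4, with F1 next at 807 CPM.

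**Figure D3:**
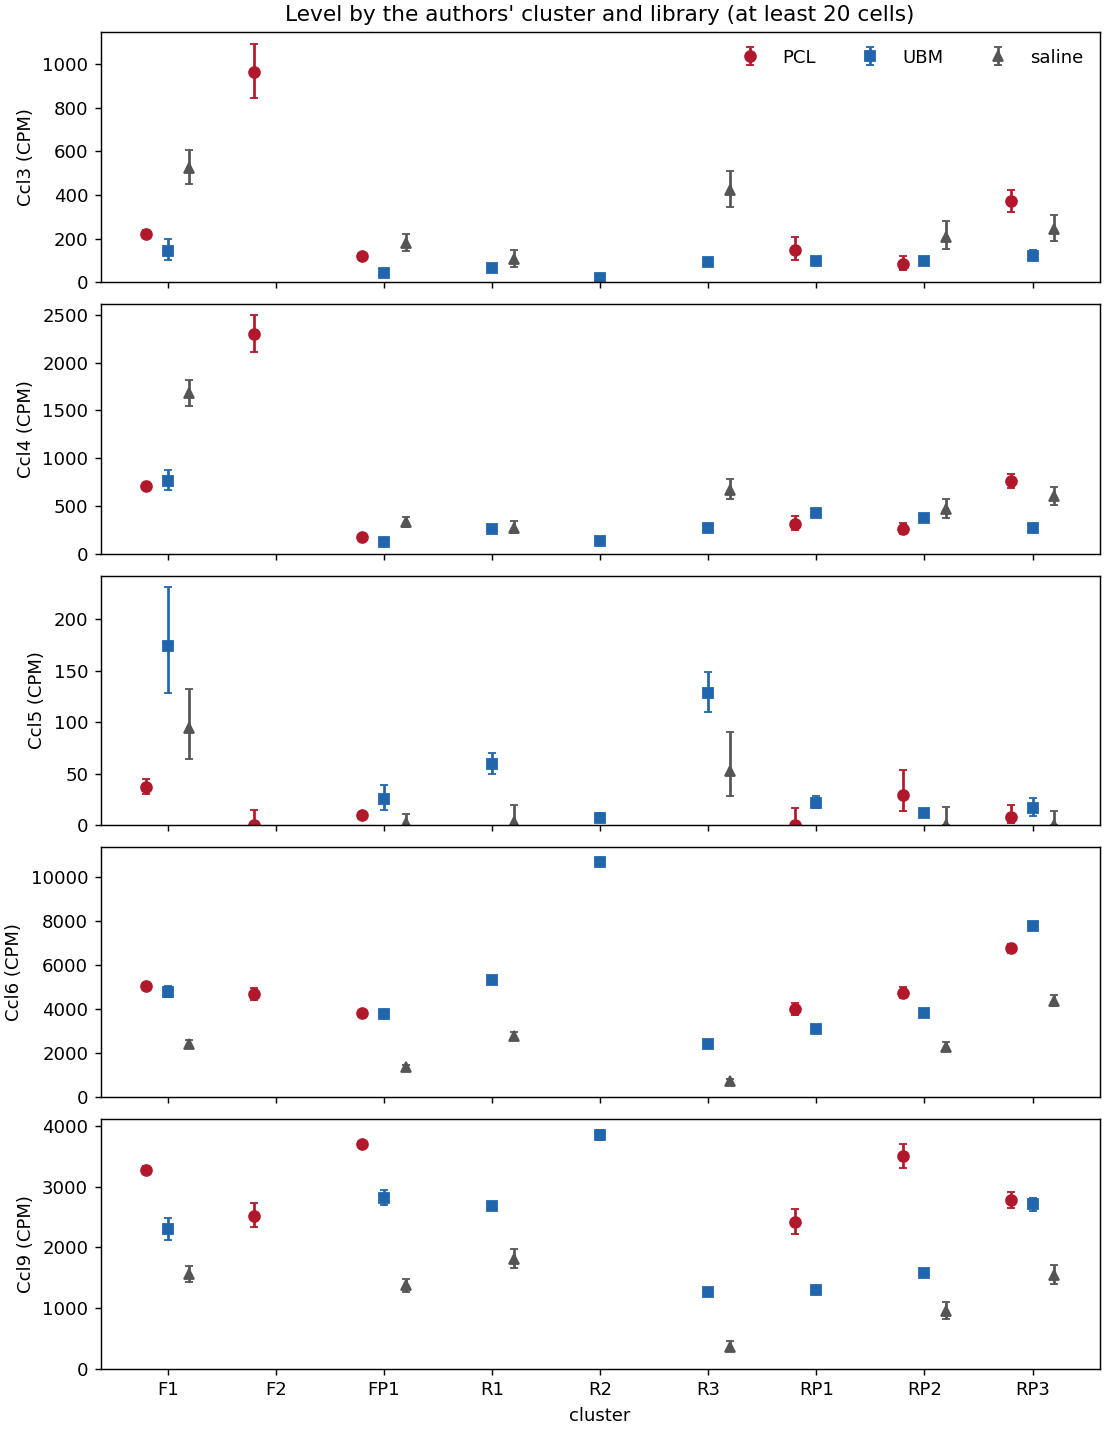
Level of each gene in CPM in the authors' 9 clusters, for each library with at least 20 cells in the cluster, with exact 95% counting intervals. R2 holds UBM cells only and has the highest Ccl6 and Ccl9, at 10717 and 3851 CPM. The F2 points of Ccl3 and Ccl4 rest largely on 1 PCL cell.

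The ratio of UMIs of 2 genes in the same cells does not depend on how libraries are scaled. Over all cells there were 0.796 Ccl9 UMIs per Ccl6 UMI with PCL (0.785 to 0.807), 0.424 with UBM (0.419 to 0.430) and 0.587 with saline (0.559 to 0.618). The ratio varied with cluster as well as library. In FP1 it was 0.973 with PCL, 0.750 with UBM and 1.00 with saline, and in RP3 it was 0.410, 0.349 and 0.354. PCL and saline did not differ beyond their counting intervals in FP1 or in F1, where the ratios were 0.647 and 0.643. In RP2 the ratio was 0.737 with PCL, 0.409 with UBM and 0.416 with saline, and there UBM and saline overlapped.

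Ccl4 UMIs outnumbered Ccl3 UMIs throughout, by 2.27 to 1 with PCL (2.15 to 2.39), 3.92 to 1 with UBM (3.67 to 4.19) and 2.47 to 1 with saline (2.23 to 2.74). In FP1 the ratio was 1.48 with PCL (1.35 to 1.62), 3.03 with UBM (2.01 to 4.67) and 1.82 with saline (1.39 to 2.39), the intervals of UBM and saline overlapping. The UBM ratio there leans on 1 cell, which held 39 of the 97 Ccl4 UMIs, while no cell held more than 4 of the 32 Ccl3 UMIs. It was not computed without that cell. The UBM cells of R2 reached 7.25 (5.20 to 10.4). In RP3 the 3 libraries lay at 2.05 with PCL, 2.19 with UBM and 2.48 with saline, with overlapping intervals.

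**Figure D4:**
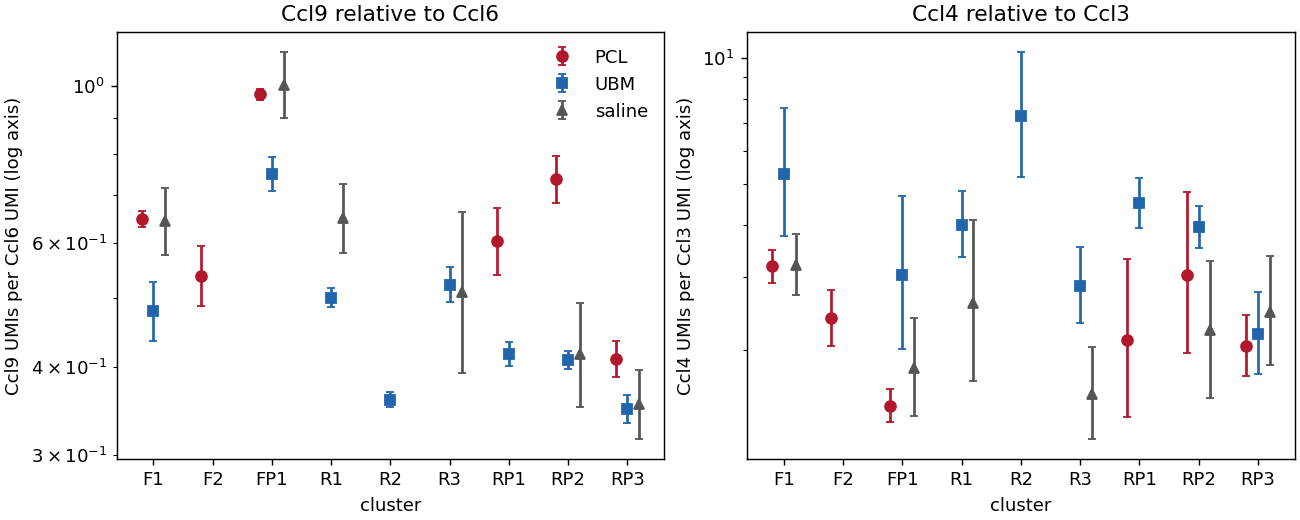
Ccl9 UMIs per Ccl6 UMI (left) and Ccl4 UMIs per Ccl3 UMI (right) on log axes, by cluster and library with at least 20 cells, with exact 95% counting intervals. Ccl9 per Ccl6 is highest in FP1, at 0.973 with PCL and 1.00 with saline, and Ccl4 per Ccl3 is highest in R2 at 7.25.

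In single cells thinned to 2500 UMIs, Ccl6 and Ccl9 were high in the same cells. Their Spearman correlation over cells was 0.54 with PCL (1599 cells), 0.66 with UBM (2118 cells) and 0.50 with saline (262 cells), as a description of cells that share a library. Within single clusters it ran from 0.46 in RP3 of UBM to 0.65 in F1 of PCL. Ccl4 was found in 45.5% of PCL cells with a Ccl3 UMI and 28.0% of those without, in 50.4% and 22.9% of UBM cells, and in 64.3% and 21.8% of saline cells. In R2 the shares were 14.3% of 7 cells with Ccl3 and 17.2% of 239 without, and in R3 of the UBM library 22.2% of 18 cells with Ccl3 and 23.0% of 152 without. The correlation of Ccl3 with Ccl9 was 0.04 with PCL, -0.07 with UBM and -0.13 with saline.

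Ccl5 was concentrated in a handful of cells. Of 836 UMIs in 115 cells, 616 (73.7%) came from 15 cells with at least 10 each. It was listed in 0 of 56 F2 cells. In R1 of the UBM library, 140 of 144 Ccl5 UMIs came from 6 of the 11 cells that also had at least 2 UMIs of the natural killer cell genes Nkg7, Gzma and Klrd1 together. In R1 of the PCL library 1 such cell held all 77 Ccl5 UMIs, and Nkg7 and Gzma had 0 UMIs in that library. In R3 of the UBM library, 166 of 176 Ccl5 UMIs came from 2 cells, and no R3 cell had 2 such UMIs. T and natural killer cell markers summed to 57.0 CPM in PCL cells with Ccl5 and 7.20 CPM in those without, to 1398 and 8.30 CPM in UBM cells, and to 155 and 24.3 CPM in saline cells. Dendritic cell markers summed to 541 and 10.5 CPM with PCL, 93.9 and 28.0 CPM with UBM, and 400 and 101 CPM with saline. Few cells carried these sums: of the cells with Ccl5, 3 of 46 with PCL, 10 of 60 with UBM and 6 of 9 with saline had a T or natural killer cell marker UMI. A dendritic cell marker UMI was found in 2 of 46, 6 of 60 and 5 of 9 of them in the same order. Among cells without Ccl5 the T or natural killer shares were 3.51%, 3.15% and 10.2%. The dendritic shares there were 3.28%, 4.50% and 12.0%. Saline cells with Ccl5 were also deeper, at a median of 7768 UMIs against 4399 in those without. Of T and natural killer cell markers in the whole saline library, Klrk1 had 29 UMIs, Cd4 20, Klrd1 3 and the others fewer. Without cells having at least 2 natural killer cell UMIs, Ccl5 stood at 17.0 CPM with PCL, 26.5 CPM with UBM and 25.4 CPM with saline. The part of these cells in the rest of the Ccl5 signal was not tested.

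Receptor genes differed between libraries as well. Ccr1, the receptor shared by Ccl3, Ccl5, Ccl6 and Ccl9 proteins, stood at 216 CPM with PCL, 68.0 CPM with UBM and 70.4 CPM with saline. It was 3.17-fold higher with PCL than with UBM (2.94 to 3.42) and 3.06-fold higher than with saline (2.57 to 3.67). Within FP1 it stood at 181 CPM with PCL (171 to 192), 90.8 CPM with UBM (71.0 to 114) and 57.3 CPM with saline (38.1 to 82.9). Within RP3 it stood at 84.4 CPM with PCL, 57.7 CPM with UBM and 89.3 CPM with saline, with overlapping intervals. Ccrl2, an atypical receptor that does not signal for migration, followed the order of Ccl3 and Ccl4, at 84.8 CPM with PCL, 62.9 CPM with UBM and 188 CPM with saline. Ccr3 had 37 UMIs with PCL, 57 with UBM and 0 with saline. Ackr2 and Ackr4 were not analysed here.

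Of 10 other CC ligands, 9 were analysed and 5 had at least 50 CPM in a library. For UBM against saline 2 of these 5 were at least 2-fold higher and 0 lower, where 4.29% of all genes at that minimum were higher and 7.63% lower. Ccl8, a monocyte attractant, was 8.99-fold higher with UBM than with saline (8.65 to 9.35) and 15.6-fold lower with PCL than with UBM. Ccl24, an eosinophil attractant, stood at 495 CPM with PCL, 1211 CPM with UBM and 110 CPM with saline. Ccl12, a ligand of CCR2, stood at 198 CPM with PCL, 575 CPM with UBM and 384 CPM with saline. The PCL level was 2.91-fold lower than that of UBM (2.78 to 3.05). R2, which held only UBM cells and 14.8% of UBM UMIs, stood at 44733 CPM of Ccl8, 5847 CPM of Ccl24 and 1643 CPM of Ccl12. Levels of these ligands with UBM were not computed without R2, so its part in their differences and in the counts below was not tested. Ccl2 and Ccl7, also ligands of CCR2, were within 2-fold in all 3 comparisons. For PCL against saline 1 of the 5 was higher and 0 lower, against 5.05% and 4.38% of all genes. For PCL against UBM 0 were higher and 3 lower, against 7.4% and 3.82%. With a minimum of 10 CPM, the shares of all genes higher and lower were 3.92% and 7.42% for UBM against saline, 4.4% and 5.28% for PCL against saline, and 6.51% and 3.57% for PCL against UBM. At that minimum 2 of 7 were higher and 2 lower for UBM against saline, 1 of 7 higher and 1 lower for PCL against saline, and 1 of 6 higher and 3 lower for PCL against UBM.

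Genes that respond to NF-kB, which can induce Ccl3 and Ccl4, were described from a list of 18. For UBM against saline 0 were at least 2-fold higher and 6 lower of 13 with at least 50 CPM, with a median log2 ratio of -0.98, where 4.29% of all genes were higher and 7.63% lower and the median of all genes was -0.05. For PCL against saline 0 were higher and 3 lower of 13, with a median of -0.50, and for PCL against UBM 2 were higher and 0 lower of 11, with a median of 0.30. With a minimum of 10 CPM the counts were 0 and 8 of 17 for UBM against saline, 1 and 4 of 18 for PCL against saline, and 5 and 0 of 17 for PCL against UBM. Il1b, a cytokine, stood at 678 CPM with PCL, 104 CPM with UBM and 779 CPM with saline. Cxcl2, a neutrophil attractant, stood at 2585 CPM with PCL, 2104 CPM with UBM and 1401 CPM with saline, lowest with saline unlike Ccl3 and Ccl4.

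Immediate early genes, which cell handling can also induce, were at least 2-fold lower for 6 of 14 with UBM against saline (median -0.85), 6 of 14 with PCL against saline (median -0.82), and 0 of 14 with PCL against UBM, where 1 was higher (median -0.09). Jun stood at 188 CPM with PCL, 212 CPM with UBM and 664 CPM with saline. Interferon response genes were lower for 9 of 10 with UBM against saline (median -1.68) and 1 of 10 with PCL against saline (median -0.0041), and higher for 6 of 8 with PCL against UBM (median 1.74). With a minimum of 10 CPM these were 13 of 15, 2 of 15 and 8 of 14. The part of these lists, and of the muscle-fibre and neutrophil markers, in the Ccl3 and Ccl4 differences was not tested. The shares of all genes for these comparisons and minimums are those given beside the other CC ligands: at 50 CPM, 7.63% of all genes were lower with UBM than with saline, 4.38% lower with PCL than with saline and 7.4% higher with PCL than with UBM.

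The genes most like each chemokine were taken by Pearson correlation of log2(CPM + 10) over 14 groups of cluster and library with at least 50 cells, among 3933 genes. For Ccl3 they were Rassf4 (0.90), Ccl4 (0.90) and Fam129a (0.89), and for Ccl4 they were Ebi3 (0.90), Ccl3 (0.90) and Rchy1 (0.89). For Ccl6 they were Adam15 (0.87), Snx30 (0.81) and Scamp1 (0.81), and for Ccl9 Gtf3c6 (0.89), Copb2 (0.87) and Shfm1 (0.86). For Ccl5 they were Snx20 (0.81), Hpcal1 (0.77) and Tspan13 (0.69). Over 20 groups with at least 20 cells, Ccl3 and Ccl4 each ranked first for the other at 0.90, and Ccl9 ranked first for Ccl6 at 0.86, against rank 29 over the 14 groups. The 20 groups include F2 of PCL, where 1 cell held 72.8% of Ccl3 and 56.0% of Ccl4 UMIs. In F1 of saline, which is in both sets of groups, 1 cell held 34.8% and 39.5%. The likeness of Ccl3 and Ccl4 was not computed without these cells. Most other likenesses were lower over the 20 groups. For Ccl9, Gtf3c6 stood at 0.37 (rank 730) and Copb2 at 0.23 (rank 1377), while Shfm1 ranked first at 0.89. For Ccl3, Rassf4 stood at 0.56 (rank 289), and for Ccl4, Ebi3 at 0.67 (rank 63). For Ccl5, Snx20 stood at 0.07 and Tspan13 at 0.15, and for Ccl6, Adam15 at 0.75, Snx30 at 0.61 and Scamp1 at 0.65.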

How the data were processed

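The deposited table holds raw UMI counts per gene and cell, per the file headers and its values, which are whole numbers. The authors' cluster and the condition of every cell come from a separate deposited table. Its names for PCL and saline were matched to the labels by meaning, as was that for UBM. The submitters' processing notes name Cell Ranger and Seurat version 2 and list build hg38, although the gene symbols are mouse. The sources used here give no cell filters and no treatment of doublets, and no doublet caller was run.

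Counts were summed per library or cluster and divided by total UMIs to give CPM. Levels have Poisson intervals, ratios conditional binomial intervals and shares Clopper-Pearson intervals, all exact, at 95% and for counting error only. A gene at 0 has a floor of 3 counts per library. With 1 library per condition no test was run. Thinning to 2500 UMIs left out 154 PCL, 162 UBM and 79 saline cells. Trimmed mean scaling used edgeR 4.0.16 in R 4.3.3, and the rest Python 3.11.15. Ratios and intervals were tested on simulated data.

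The 5 genes, the lists and the rule for genes of like pattern were chosen with earlier results of these data known. The lists came with no minimum level: 50 CPM was set, to match the share of all genes, after counts at 10 CPM had been seen, and both are printed. The motifs, their capitals, the values without top cells within clusters, the counts of the 5 genes at 50 CPM and the comparison of directions between clusters were also chosen after values were seen. A listed gene is not reported here.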

Additional observations from a re-analysis of the deposited data

Results flagged for a closer look

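In 5 cases a gene had counting intervals on opposite sides of a ratio of 1 in different clusters for the same comparison. Only the 2 clusters furthest apart are given for each case. FP1 also lay opposite RP3 for Ccl3 and Ccl4 with PCL against saline, and opposite RP2 for Ccl4 with PCL against UBM. The difference between clusters was not tested, since each rests on 1 library per treatment. For PCL against saline, the log2 ratio in RP3 exceeded that in F1 by 1.85 for Ccl3 and 1.60 for Ccl4, and by 1.46 and 1.56 without the top cell of each library. For PCL against UBM, the log2 ratio of Ccl4 in RP3 exceeded that in RP2 by 2.07, and by 2.09 without top cells. The log2 ratio of Ccl6 for PCL against UBM was 0.51 higher in RP2 than in RP3. That of Ccl5 was 2.66 higher in RP2 than in FP1, but -1.39 without top cells, so its direction rested on single cells.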

How the results depend on the processing

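Each log2 ratio was recomputed under 13 alternatives, 10 planned and 3 added after seeing the data, and 11 of 15 ratios kept their direction in all of them. Directions that changed were those of Ccl3 and Ccl4 for PCL against saline with FP1 and RP3 weighted equally (0.22 and 0.02), Ccl5 for PCL against saline in 3 alternatives, and Ccl6 for PCL against UBM without R2 (0.07). Ccl3 for UBM against saline stayed past 2-fold in all 13 (-1.84 to -1.38), as did Ccl9 for PCL against saline (1.15 to 1.45). Ccl4 for UBM against saline was past 2-fold in 11 of 13 and Ccl6 in 11 of 13. The count of genes at least 2-fold apart for UBM against saline was 3, and became 2 with each cell counted alike, 2 without the top cells, 2 without R2 (0 of them higher), 4 with equal weight for clusters and 4 with a fold of 1.5. For PCL against saline it was 1, and became 2 with trimmed mean scaling, 2 with equal weight for clusters and 4 with a fold of 1.5. For PCL against UBM it was 1, and became 3 with equal weight and 2 with a fold of 1.5. With each cell counted alike it was also 1, but Ccl5 lower in place of Ccl3 higher. At a fold of 1.5, 27.3% of all genes at 50 CPM were past it in either direction for UBM against saline. That share was 22.9% for PCL against saline and 29.5% for PCL against UBM. The log2 ratio of Ccl5 for UBM against saline ran from 0.06 to 4.35. With equal weight, Ccl5 was the gene added to both counts against saline, on 1 saline UMI in FP1 and 0 in RP3. Trimmed mean scaling moved every ratio by 0.14 for UBM against saline and -0.11 for PCL against UBM. The causes were not tested. No paired analysis was possible because each treatment has 1 library. Depth limits Ccl5 and all saline values in single clusters.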
